A study of Rattus norvegicus with 9 samples.

Results

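The genes described here are those of rat bone marrow-derived dendritic cells (BMDCs) whose symbol is that of a cytosolic or mitochondrial ribosomal protein, that is, Rpl, Rps, Mrpl or Mrps followed by a digit, or Rpsa. Symbols were available only for genes that the study listed as changed between total lipids (TLs) and the vehicle control, so the values that chose the members are those of that contrast, whose values are given below as a description, with no p-value and nothing read from the number of calls. The rule found 17 of the 32545 genes counted. Of these, 15 encode proteins of the cytosolic ribosome, 8 in the large subunit (Rpl3, Rpl6, Rpl14, Rpl21, Rpl32, Rpl35, Rpl38 and Rpl39) and 7 in the small subunit (among them Rpsa, Rps3a, Rps12, Rps24 and Rps29). The other 2, Rps6ka4 and Rps6ka5, carry a symbol of the same form but encode the kinases MSK2 and MSK1. No mitochondrial ribosomal protein gene was found, so cytosolic subunits could not be compared with mitochondrial ones. The symbols covered 1981 gene IDs, and only 9 of 47 listed large subunit genes and 7 of 32 listed small subunit genes of the cytosolic ribosome, Rplp1 included, could be looked up. The others are not analysed here.

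The cells were wild-type BMDCs of Sprague-Dawley rats aged 8 to 12 weeks, differentiated with the cytokines GM-CSF and FLT3L until culture day 7. Each treatment lasted 6 h on 1000000 cells. One group received 600 ng/mL of TLs purified from Lactobacillus johnsonii N6.2, a gut bacterium, emulsified in PBS. The second received 100 ng/mL of α-GalCer, a synthetic glycolipid used as a comparator, in DMSO diluted in PBS. The vehicle control received DMSO in PBS, so that the lipid and the absence of DMSO cannot be told apart between the TL libraries and the other libraries. There were 3 RNA-seq libraries per group, which the study describes as 3 independent assays. No label says which cultures or animals the libraries came from, so p-values measure the spread between these libraries.

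The cytosolic ribosome is built from a large and a small subunit, each an assembly of ribosomal RNA and many small proteins, and the mRNAs of these proteins are among the most abundant of most cells. In mammals nearly all of them begin with a C followed by a run of pyrimidines, the 5′ terminal oligopyrimidine (TOP) tract, through which mTORC1 signalling sets how well they are translated. MSK1 and MSK2 are nuclear kinases downstream of p38 and ERK that phosphorylate histone H3 and CREB, and in macrophages they take part in the response to Toll-like receptor ligands.

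The annotated start sites are shown because the TOP tract is the sequence that ribosomal protein genes are known for. RefSeq promoters of the GRCr8 assembly were matched by symbol for 13 of the 17 members, 11 ribosomal protein genes and both kinase genes. Each line gives 10 bases before and 20 bases from the annotated start, read 5′ to 3′ on the strand of the transcript. Capitals mark a run that opens with C, continues with at least 4 bases that are C or T, and begins within 5 bases of the start. In Rps24, Rpl35 and Rpl14 the pyrimidines continue upstream of that reach, and the capitals begin at the first C within it. The first capital is therefore not the first pyrimidine in these lines. All ribosomal protein members with such a run are shown, but of those without it only Rpl21. The lines of Rps12, Rpl3, Rpsa, Rpl6 and Rpl38, which had no such run, are left out.
Rps24, chr16:96507-96536, plus strand: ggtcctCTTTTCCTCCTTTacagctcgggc
Rpl35, chr3:43165902-43165931, minus strand: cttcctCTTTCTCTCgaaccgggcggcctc
Rpl14, chr8:129163610-129163639, plus strand: ggccctCTCCCTTCTCgctgagcgccgcca
Rps3a, chr2:173827023-173827052, minus strand: gtacttccgCCCTTTTggctctcagagcgg
Rpl39, chrX:121195877-121195906, minus strand: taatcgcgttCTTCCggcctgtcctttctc
Rpl21, chr12:13386134-13386163, minus strand: ttccgccggggcagccatcttccaggttgg
Rps6ka5, chr6:125735736-125735765, minus strand: gaggaggcggaggagctccgcggccagagc
Rps6ka4, chr1:213461963-213461992, minus strand: ccatgtaaccggcgccgcccggagccccag

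Such a run stood at the start of 5 of the 11 ribosomal protein members with a promoter, or 45.5%, and at that of neither kinase gene. Over all promoters of the table the share was 15.7% (5248 of 33469), over the listed cytosolic ribosomal protein genes 64.1% (41 of 64) and over the listed mitochondrial ones 23.1% (15 of 65). Only the transcript strand was searched. Rpl21 had a run within 20 bases of its start, as did 8 of the 11 members, against 47% of all promoters. The 5 members with a run at the start did not share a subunit, as 3 belong to the large subunit and 2 to the small one. These matches describe the annotated start, which was not measured in these cells.

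The libraries held 15190820 to 20591105 counted reads, and 3 reads, taken as the limit below which a count of 0 cannot be told from a low level, correspond to 0.146 to 0.197 CPM, the reads of a gene per 1000000 counted reads, scaled throughout by edgeR's TMM factors. Dendritic cell markers were present in every library (4 of 12 listed genes had a symbol, and Itgax was at 369 to 683 CPM), but so were monocyte and macrophage markers (5 of 11, with Csf1r at 607 to 951 CPM) and the granulocyte gene Mpo, at 427 to 536 CPM. The summed level of the 5 monocyte and macrophage genes was 3289 to 3329 CPM in the TL libraries, 1808 to 1865 CPM in the α-GalCer libraries and 1832 to 1931 CPM in the vehicle libraries. In the TL libraries most of this sum was Cd14, at 2388 to 2436 CPM. Cd14 was at 396 to 465 CPM with α-GalCer and 425 to 493 CPM in the vehicle control. In both of these groups Csf1r was the largest part of the sum. Adgre1 was also higher in every TL library than in the other 6, whereas Csf1r, Mertk and Mrc1 were lower in every TL library. Csf1r was at 607 to 615 CPM with TLs, 941 to 951 CPM with α-GalCer and 883 to 946 CPM in the vehicle control. Markers of B cells, T and NK cells and erythroid cells had no symbol, and the plasmacytoid dendritic cell gene Ptcra had 0 to 3 reads in any library, at or below the limit of 3 reads. In bulk libraries, fewer cells of a type and less RNA per cell cannot be told apart, and the part of cell makeup in the values below was not tested.

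Vehicle replicate 2 stood apart from the other libraries. On the second principal component (9.72% of the variance) it lay at -32.6, whereas the other 8 libraries lay between -5.21 and 15.6. On the first (54.1%) it lay at -23.2, within the range of the other vehicle and α-GalCer libraries, -25.1 to -20.8. Comparisons with the vehicle control are therefore given with and without this library.

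The 15 ribosomal protein members together made up close to 1% of every library. Ribosomal protein genes without a symbol are not in this sum. The level with TLs relative to the other groups depended on the scaling. The summed counts of the 15 genes were 0.875%, 0.908% and 0.882% of the TL libraries. They were 0.959%, 0.974% and 1.05% of the α-GalCer libraries. In the vehicle control they were 0.917%, 1.18% and 0.927%, and the high value is that of replicate 2. As raw shares all TL libraries were thus below the other 6. The 95% Wilson intervals reached at most 0.00503 percentage points to either side and cover counting error only. The TMM factors, which correct for a few very abundant genes, were 0.935 to 0.940 in the TL libraries and 0.994 to 1.05 in the others. After this scaling the TL libraries no longer stood below the rest, and the summed level averaged 9473 ± 211 CPM with TLs, 9602 ± 571 CPM with α-GalCer and 9844 ± 1772 CPM in the vehicle control (SD, n = 3 each), so that the groups differed by less than the spread within the vehicle control. In vehicle replicate 2 the sum was 11890 CPM, against 8781 CPM in replicate 1 and 8861 CPM in replicate 3, a ratio of 1.35 to their mean. The spread within the vehicle control thus came mostly from replicate 2. The TL libraries, at 9316 to 9713 CPM, and the α-GalCer libraries, at 9126 to 10235 CPM, all lay above vehicle replicates 1 and 3 and below replicate 2.

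**Figure D1:**
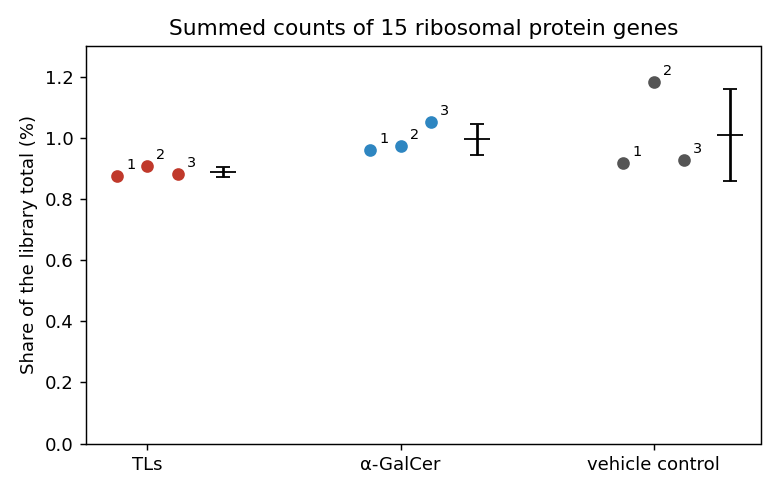
Share of each library's counted reads (%, vertical axis from 0) that fell on the 15 cytosolic ribosomal protein genes, for the TL, α-GalCer and vehicle control libraries. Numbers are replicates and black bars the mean ± SD (n = 3). Vehicle replicate 2, at 1.18%, lies above the 8 other libraries, which run between 0.875% and 1.05%.

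The excess in vehicle replicate 2 covered all 14 ribosomal protein genes with enough reads to test. Each of them had its highest CPM of the 9 libraries there, whereas 18.9% of all genes tested did. The ratio to the mean of vehicle replicates 1 and 3 ran from 1.20 for Rpl3 to 1.58 for Rpl21. As log2 differences, the 14 genes had a median of 0.48, and that of all genes tested was 0.02. The 14 genes lay between the 79.9th and the 97.2nd percentile of all genes, so many other genes moved as far. Vehicle replicates 1 and 3 were close to each other, with a median absolute log2 difference of 0.03 over the 14 genes.

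Other genes with a symbol differed in this library in both directions. Rplp1, which encodes a protein of the stalk of the large subunit and is matched by neither form of symbol, had a ratio of 1.31 in vehicle replicate 2. Of the translation factors, chosen for naming here after their values were seen, Tpt1 had a ratio of 1.34, Eef1g of 1.25 and Eif1 of 1.25. Eif4g1, the scaffold of the cap-binding complex, had a ratio of 0.775 and Mtor, the kinase of mTORC1, of 0.782. The lowest ratios among the genes described here were 0.490 for Deptor and 0.656 for Mt-nd5. Rps6ka5 was at 0.875, its lowest of the 9 libraries, and Rps6ka4 at 1.06. The marker sums of vehicle replicate 2 lay near those of the other vehicle libraries, at 1832 CPM, against 1896 and 1931 CPM, for the monocyte and macrophage genes, and at 827 CPM, against 863 and 819 CPM, for the dendritic cell genes. Within the first of these lists Cd14 had a ratio of 1.15, Mrc1 of 0.842 and Mertk of 0.809. Mpo had its highest level of the 9 libraries there, at 536 CPM, against 479 and 491 CPM. The part of cell makeup in the ribosomal protein values was not tested. The counted reads of that library, 17729881, were within the range of the others.

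**Figure D2:**
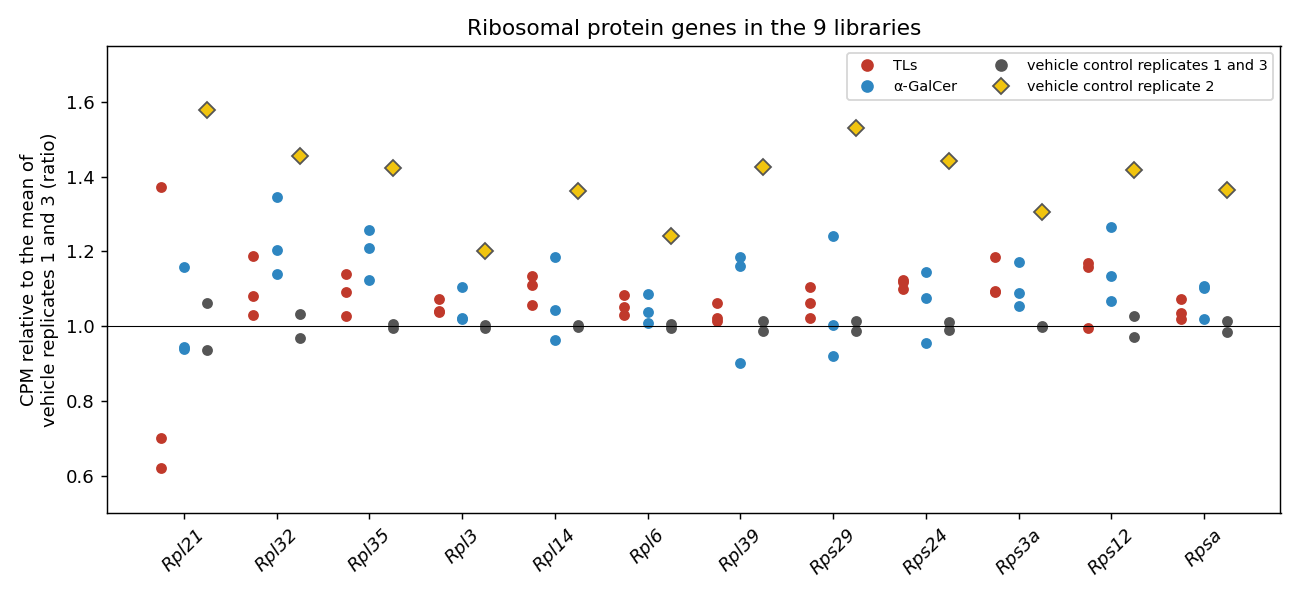
Level of 12 of the tested ribosomal protein genes in each of the 9 libraries, as CPM divided by the mean CPM of vehicle replicates 1 and 3 (ratio, vertical axis), with TLs, α-GalCer and vehicle control from left to right within each gene. Vehicle replicate 2 (diamonds) is the highest library for all of them, with ratios of 1.20 to 1.58.

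For the large subunit, Rpl3, which reaches towards the peptidyl transferase centre, had the highest count level. It was at 1141, 1179 and 1140 CPM in the TL libraries, 1121, 1120 and 1214 CPM in the α-GalCer libraries and 1094, 1318 and 1102 CPM in the vehicle libraries. The highest libraries were vehicle replicate 2 and α-GalCer replicate 3. CPM does not account for transcript length, and levels of different genes are not compared here beyond this order of counts.

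Rpl14 gave 641, 673 and 688 CPM with TLs, 632, 584 and 719 CPM with α-GalCer and 607, 826 and 605 CPM in the vehicle control. The TL libraries lay above vehicle replicates 1 and 3 and below replicate 2. Rpl6 had the same order, with 885 to 931 CPM in the TL libraries, 867 to 933 CPM in the α-GalCer libraries and 854, 1066 and 863 CPM in the vehicle libraries. Rpl35, which sits near the exit of the nascent chain tunnel, was at 480, 533 and 509 CPM with TLs, 525, 564 and 587 CPM with α-GalCer and 469, 664 and 465 CPM in the vehicle control. Rpl32 was at 399 to 460 CPM with TLs, 441 to 521 CPM with α-GalCer and 400, 564 and 375 CPM in the vehicle control, and Rpl39, a very small protein of the same tunnel, at 234 to 245 CPM with TLs, 209 to 274 CPM with α-GalCer and 228, 330 and 235 CPM in the vehicle control. In these genes the 3 groups overlapped.

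Of the 14 tested genes, Rpl21 varied most within a group relative to its mean, with 147 ± 67.4 CPM over the TL libraries (SD, n = 3). It was at 224, 101 and 115 CPM in the TL libraries, 154, 190 and 153 CPM in the α-GalCer libraries and 174, 258 and 153 CPM in the vehicle libraries. TL replicate 1 was thus 1 of the high libraries and the 2 other TL libraries were the lowest of the 9. The log2 difference of TLs from the vehicle control was -0.40 (SE 0.27), and without TL replicate 1 it was -0.85 (SE 0.20). Relative to α-GalCer it was -0.17 (SE 0.28), and -0.62 (SE 0.20) without TL replicate 1, where edgeR's quasi-likelihood test gave an adjusted p of 0.0461, over the threshold of 0.01 used throughout. Rpl21 is known for many processed copies in mammalian genomes, and how reads shared with such copies were counted is not given in the sources used here, which holds for ribosomal protein genes in general.

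For Rpl38, whose product is required for normal axial skeleton patterning in mice, the gene ID with this symbol was barely counted. Whether this ID is the main locus of the gene was not tested, so its counts are not a level of Rpl38 in these cells. The ID did not pass the filter on low counts. It had 10, 2 and 4 reads in the TL libraries, 2, 2 and 7 in the α-GalCer libraries and 2, 1 and 0 in the vehicle libraries. The ratio of the summed counts, scaled for depth, was 1.63 for TLs over α-GalCer (exact 95% interval 0.710 to 3.88, counting error only) and 3.55 (0.937 to 19.8) for α-GalCer over vehicle. Of its 16 reads with TLs, 10 came from 1 library.

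For the small subunit, Rps3a and Rpsa had the highest count levels. Rps3a was at 1221, 1323 and 1217 CPM with TLs, 1175, 1214 and 1306 CPM with α-GalCer and 1117, 1457 and 1115 CPM in the vehicle control. Rpsa, which is also known as the 67-kDa laminin receptor, was at 1182, 1245 and 1201 CPM with TLs, 1183, 1278 and 1284 CPM with α-GalCer and 1143, 1582 and 1176 CPM in the vehicle control. For both genes all TL and α-GalCer libraries lay between vehicle replicates 1 and 3 on one side and vehicle replicate 2 on the other.

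Rps24, a gene mutated in some patients with Diamond-Blackfan anaemia, was at 517, 519 and 509 CPM with TLs, 441, 497 and 530 CPM with α-GalCer and 457, 666 and 467 CPM in the vehicle control. Rps24 had an SD of 5.76 CPM over the TL libraries, against 118 CPM over the vehicle libraries (n = 3 each). Rps12 was at 485 to 569 CPM with TLs, 521 to 617 CPM with α-GalCer and 474, 691 and 501 CPM in the vehicle control. Rps29, a zinc-binding protein of the small subunit, was at 488 to 528 CPM with TLs, 440 to 594 CPM with α-GalCer and 472, 732 and 485 CPM in the vehicle control.

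Within the other groups many members also had the same highest library. α-GalCer replicate 3 was the highest α-GalCer library for 13 of the 14 genes, and TL replicate 2 the highest TL library for 11 of the 14. The share of all genes tested with this order was not counted, so nothing particular to the members is read from it. As the members come from the same libraries, they are not independent readings of a treatment, and treatments were compared over libraries.

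For TLs against the vehicle control, none of the 14 tested ribosomal protein genes was called, a call being an adjusted p below 0.01 with a log2 fold change beyond 0.3 in either direction. The study listed these genes as changed at the same thresholds by another method. It used NOISeqBIO after correction for length and GC content and a search for outliers, which were not repeated here. The members were chosen on this contrast, in which 19.4% of all genes tested were called (9.77% higher and 9.67% lower with TLs), and nothing is read from the count. The log2 fold changes were negative for 12 of the 14 genes, with a median of -0.05 and a range of -0.40 to 0.03, where the median of all genes tested was -0.02. The large subunit genes had a median of -0.07 and the small subunit genes of -0.04 (7 each). No ribosomal protein gene had TL and vehicle libraries that did not overlap, whereas 46.1% of all genes tested had.

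Without vehicle replicate 2 the direction turned. The log2 fold change was then positive for 13 of the 14 genes and negative for Rpl21 alone, with a median of 0.10 and a range of -0.15 to 0.18. The large subunit genes had a median of 0.08 and the small subunit genes of 0.15. The size remained under the limit of 0.3 and again none was called, where 21.2% of all genes tested were. For 9 of the 14 genes all TL libraries lay above vehicle replicates 1 and 3, as did 30.9% of all genes tested. Leaving out vehicle replicate 1 or 3 instead made all 14 values negative, with medians of -0.14 in both cases. Whether these genes stood higher or lower with TLs than in the vehicle control thus depended on 1 library.

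**Figure D3:**
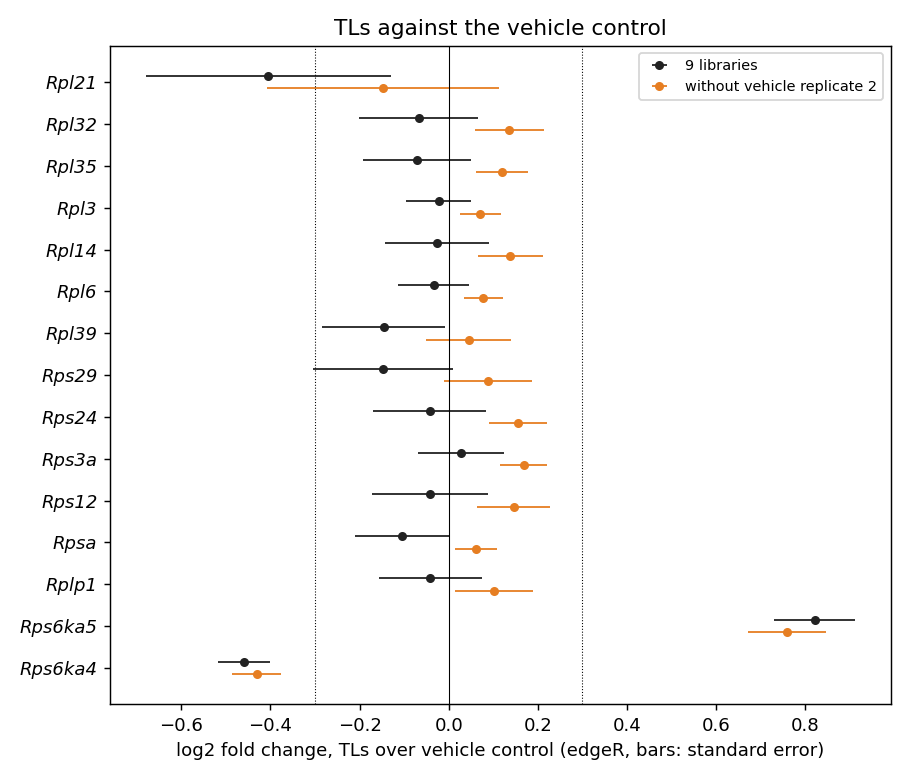
Log2 fold change of TLs over the vehicle control (horizontal axis) with its standard error from edgeR, for 12 of the tested ribosomal protein genes, Rplp1 and the 2 kinase genes, in the fit of all 9 libraries (black) and without vehicle replicate 2 (orange). Dotted lines mark the limit of 0.3 in either direction. Without that library all of the ribosomal protein genes plotted but Rpl21 lie above 0, and both kinase genes keep their place.

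TLs and α-GalCer can be compared without the vehicle control, although the TL libraries are those on which the members were chosen. No ribosomal protein gene was called in this comparison, in which 20.3% of all genes tested were (9.85% higher and 10.5% lower with TLs), and the adjusted p from edgeR ran from 0.393 to 0.988. The log2 fold changes were positive for 7 genes and negative for 7, with a median of -0.02, equal to that of all genes tested at this precision. They ranged from -0.17 for Rpl21 to 0.07 for Rps24, and the standard errors from 0.07 for Rpl3 to 0.28 for Rpl21. At an unadjusted p under 0.05, 0 of the 14 genes passed.

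For α-GalCer against the vehicle control edgeR called 0% of all genes tested, with 370 genes at an unadjusted p under 0.05, while DESeq2 called 2 and limma-voom 0. The adjusted p of every ribosomal protein gene was 0.999936 and 0 of the 14 had an unadjusted p under 0.05. Their log2 fold changes had a median of -0.04 and ran from -0.23 to 0.09, and 10 of the 14 were negative. Without vehicle replicate 2, which this comparison shares with that of TLs, all 14 were positive, with a median of 0.11 and a range of 0.02 to 0.30, and the lowest adjusted p was 0.188. For 9 of the 14 genes all α-GalCer libraries lay above vehicle replicates 1 and 3, as did 13.7% of all genes tested.

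The kinase genes differed with TLs in opposite directions. Rps6ka5, which encodes MSK1, was at 44.7, 45.2 and 40.9 CPM in the TL libraries, 30.0, 26.1 and 25.8 CPM in the α-GalCer libraries and 26.7, 22.5 and 24.8 CPM in the vehicle libraries. All 3 TL libraries were above the other 6. The log2 fold change of TLs over the vehicle control was 0.82 (SE 0.09), and 0.76 without vehicle replicate 2. Relative to α-GalCer, Rps6ka5 rose with TLs by 0.68 on the log2 scale (SE 0.09, adjusted p 0.000180, edgeR's quasi-likelihood test).

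Rps6ka4, which encodes MSK2, was at 85.6, 92.8 and 90.1 CPM in the TL libraries, 123, 117 and 125 CPM in the α-GalCer libraries and 123, 128 and 118 CPM in the vehicle libraries. The TL libraries were all below the others. The log2 fold change of TLs over the vehicle control was -0.46 (SE 0.06), and -0.43 without vehicle replicate 2. Relative to α-GalCer it fell with TLs, with a log2 fold change of -0.45 (SE 0.06, adjusted p 0.000163, edgeR's quasi-likelihood test). Both comparisons use the same TL libraries, and both genes were chosen on the contrast with the vehicle control. For α-GalCer against the vehicle control, 0% of all genes tested were called. The tests of these genes against α-GalCer are therefore not independent of that choice. α-GalCer differed from the vehicle control by a log2 fold change of 0.15 (SE 0.09) for Rps6ka5 and -0.01 (SE 0.06) for Rps6ka4, neither of which passed the test.

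**Figure D4:**
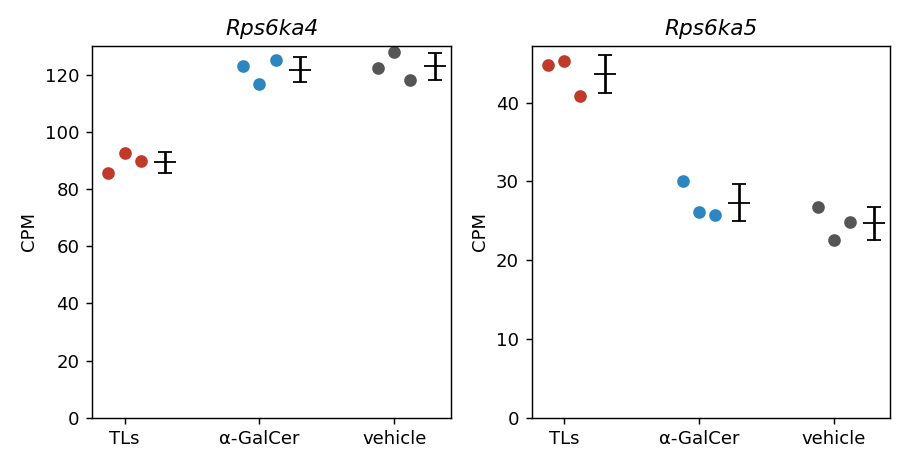
Level of Rps6ka4 (left) and Rps6ka5 (right) in CPM (vertical axes from 0) in the TL, α-GalCer and vehicle libraries. Points are libraries and black bars the mean ± SD (n = 3). The TL libraries lie below the other 6 for Rps6ka4, at 85.6 to 92.8 CPM, and above them for Rps6ka5, at 40.9 to 45.2 CPM.

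Other genes of the pathway were taken from fixed lists. As they too have symbols only where the study listed them as changed between TLs and the vehicle control, their values in that contrast are given as a description, with the value without vehicle replicate 2 beside them, and calls are given only for TLs against α-GalCer, which uses the same TL libraries. Of 7 ribosome biogenesis genes tested (74 listed), 2 rose and 0 fell with TLs against α-GalCer. Of all genes tested, 9.85% were called higher and 10.5% lower in this comparison. The symbols come from calls on the same TL libraries, so calls and p-values in these lists are not independent of that choice. Nothing is read from their number. Polr1e, a subunit of RNA polymerase I, rose by 0.75 on the log2 scale (SE 0.11, adjusted p 0.000327, edgeR), and was at 0.72 against the vehicle control (0.76 without vehicle replicate 2). The helicase Ddx52 rose by 0.37 (SE 0.07, adjusted p 0.00278), and was at 0.38 against the vehicle control (0.36). Its call against α-GalCer was lost without TL replicate 1 or 2 or α-GalCer replicate 1 or 3 (0.32 to 0.36). Taf1c, of the promoter selectivity factor of RNA polymerase I, had a log2 fold change of 0.43 against α-GalCer (SE 0.11, adjusted p 0.0111), just missing the threshold, and was called in 6 of 15 alternative settings. Against the vehicle control it was at 0.39 (0.37). Polr1a, the largest subunit of RNA polymerase I, was at -0.16 (SE 0.08) against α-GalCer, which did not pass the test, and at -0.34 against the vehicle control (-0.39).

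Of 6 cytosolic translation factors tested (45 listed), 2 rose and 0 fell with TLs against α-GalCer, where 9.85% and 10.5% of all genes tested did. The 2 that rose act in start codon selection. Eif1 was at 641, 676 and 638 CPM with TLs, 391.9, 446 and 436 CPM with α-GalCer and 402, 505 and 407 CPM in the vehicle control, with all TL libraries above the rest. Against α-GalCer the log2 fold changes were 0.62 for Eif1 (SE 0.09, adjusted p 0.000297, edgeR) and 0.42 for Eif1a (SE 0.05, adjusted p 8.45e-05). Against the vehicle control Eif1 was at 0.57 (0.69 without vehicle replicate 2) and Eif1a at 0.48 (0.45). Eif3a, a core subunit of the initiation factor that binds the small subunit, was at 0.12 against the vehicle control (0.08), and Tpt1 at 0.16 (0.32). Eef2k, which phosphorylates and inhibits elongation factor 2 and was listed with the kinases, was at 42.7, 40.2 and 41.7 CPM with TLs, 70.9, 66.8 and 70.2 CPM with α-GalCer and 66.2, 65.6 and 66.5 CPM in the vehicle control. It fell against α-GalCer, with a log2 fold change of -0.74 (SE 0.06, adjusted p 4.5e-06, edgeR), and was at -0.67 against the vehicle control (-0.68).

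Among 6 regulators of MYC and mTORC1 tested (20 listed), 0 rose and 4 fell with TLs against α-GalCer, where 9.85% and 10.5% of all genes tested did. As stated above, nothing is read from these counts. Myc, a transcription factor whose known targets include many ribosomal protein genes, was at 141, 135 and 141 CPM in the TL libraries, 232, 255 and 227 CPM in the α-GalCer libraries and 222, 229 and 235 CPM in the vehicle libraries. The TL libraries were all below the rest. Against α-GalCer the log2 fold change of Myc was -0.77 (SE 0.06, adjusted p 2.61e-06, edgeR), and against the vehicle control it was -0.72 (-0.72 without vehicle replicate 2). Mxi1, which encodes a MAX partner, fell with a log2 fold change of -1.12 against α-GalCer (SE 0.11, adjusted p 2.29e-05) and was at -1.002 against the vehicle control (-0.97). Mxd1, another MAX partner gene, was at 0.24 against α-GalCer (SE 0.06, adjusted p 0.0109), which did not pass, and at 0.37 against the vehicle control (0.36). Sesn1 and Deptor encode proteins that restrain mTORC1. Sesn1 was at -0.72 against α-GalCer (SE 0.14, adjusted p 0.00220), a call lost without TL replicate 1 or α-GalCer replicate 3 (-0.69 and -0.59), and at -0.79 against the vehicle control (-0.80). Deptor, at no more than 8.74 CPM in any library, was at -1.73 against α-GalCer (SE 0.37, adjusted p 0.00445), a call lost without TL replicate 1 or any 1 of the α-GalCer libraries (-1.89 to -1.68), and at -1.70 against the vehicle control (-1.97). Mtor itself was at -0.05 against α-GalCer (SE 0.10), which did not pass the test, and at -0.24 against the vehicle control (-0.35). In the same libraries the ribosomal protein genes had the small values given above, and a link between them and these regulators was not tested.

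**Figure D5:**
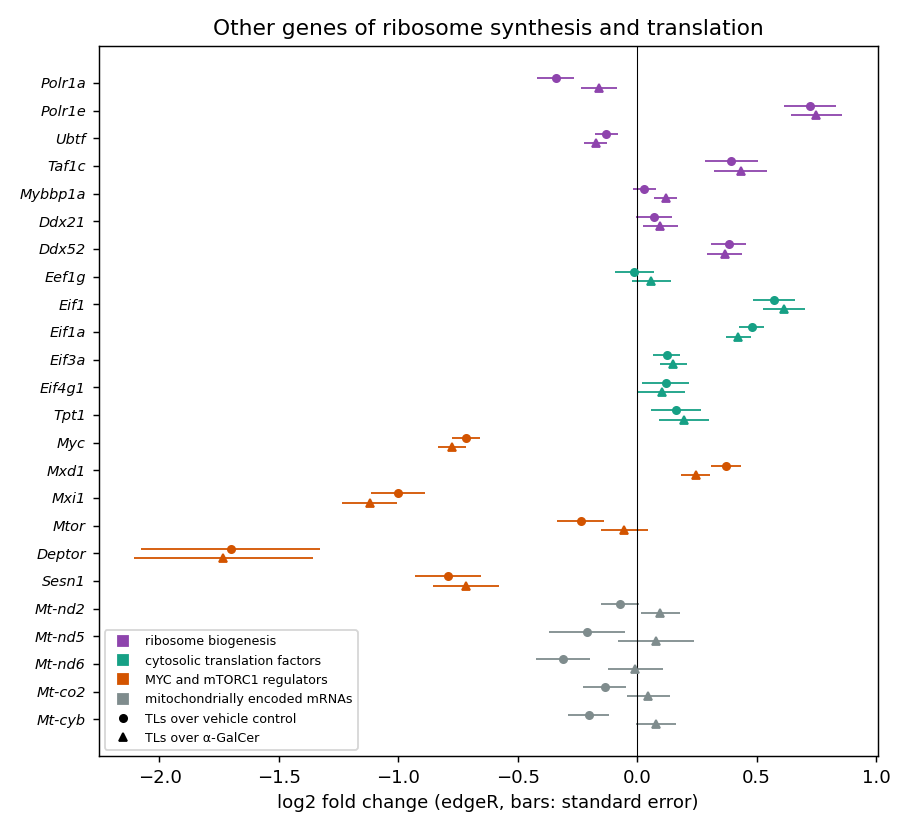
Log2 fold change with its standard error (edgeR, horizontal axis) of TLs over the vehicle control (circles) and of TLs over α-GalCer (triangles) for the tested genes of 4 lists, marked by colour. Both comparisons use the same TL libraries. Eif1 and Eif1a lie above 0 and Myc, Mxi1, Sesn1 and Deptor below it in both.

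On the mitochondrial side only Ptcd3, a pentatricopeptide protein of the small mitochondrial subunit whose symbol falls outside the rule, had an ID, 1 of 32 listed small subunit genes, and 0 of 49 listed large subunit genes had one. It was at 120, 115 and 117 CPM with TLs, 144, 152 and 138 CPM with α-GalCer and 149, 154 and 155 CPM in the vehicle control, and the TL libraries were the lowest. The log2 fold change was -0.38 (SE 0.05) against the vehicle control, -0.37 without vehicle replicate 2, and -0.30 against α-GalCer, at the limit of 0.3 and not called, although 4 of 15 alternative settings called it. The difference between this gene and the cytosolic genes was not tested. Of the 5 mRNAs made by mitochondria themselves that had a symbol (13 listed), 0 were called for TLs against α-GalCer. Of all genes tested, 20.3% were called in that comparison, and nothing is read from the count. The median log2 fold change of these mRNAs was 0.08 for TLs against α-GalCer. It was -0.20 for TLs against the vehicle control (-0.23 without vehicle replicate 2) and -0.28 for α-GalCer against the vehicle control (-0.25). For TLs against the vehicle control they ran from -0.31 for Mt-nd6 to -0.07 for Mt-nd2, and without vehicle replicate 2 from -0.39 for Mt-nd5 to -0.07 for Mt-co2.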

How the data were processed

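RNA-seq of 9 rat BMDC libraries was analysed, 3 each with TLs, α-GalCer or vehicle. The authors deposited raw read counts per gene, made from poly-A libraries with fastp, HISAT2 and featureCounts on Rnor_6.0, per the submitters' processing notes, where no tool versions are given. The strand setting and the treatment of reads mapping to several places are not given in the sources used here. Gene symbols came from the study's list of changed genes, of which 1999 rows were read and 284 were left out of the copy used. Its fold changes and p-values were not used.

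Counts were tested with edgeR 4.0.16 (filterByExpr by group, TMM, quasi-likelihood test, Benjamini-Hochberg adjustment over 12602 genes, R 4.3.3). Calls required an adjusted p below 0.01 and an absolute log2 fold change above 0.3. DESeq2 1.42.0, limma 3.58.1 and other scalings, filters and sets of libraries were alternatives. Testing on simulated data preceded the fits. RefSeq promoters (GRCr8) were searched for the pyrimidine run. The values of single members that are withheld are not reported here, and such members enter only counts, medians, ranges and sums. The genes named were all other members, Rplp1 and, from each other list, up to 4 genes with the smallest adjusted p for TLs against vehicle, with further ones whose calls changed. The members and lists were chosen with earlier results of these data known.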

Additional observations from a re-analysis of the deposited data

How the results depend on the processing

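In none of the 15 alternatives to each comparison was a ribosomal protein gene called, and both kinase genes kept their direction and call for TLs against α-GalCer in all 15. Upper quartile scaling moved the median log2 fold change of all genes for TLs against the vehicle control to -0.09, against -0.02 with TMM, and that of the 14 ribosomal protein genes to -0.12, with all 14 negative. For α-GalCer against vehicle, where TMM and edgeR called 0 genes, DESeq2 called 2, testing without a filter on low counts called 2, and leaving out 1 library each gave 0 to 1. The pyrimidine run was found at 8 instead of 5 members within 20 bases of the start. The summed level of vehicle replicate 2 over the mean of replicates 1 and 3 was 1.35, and 1.28 as a share of the raw totals; it was 1.33 and 1.35 with size factors and upper quartile scaling, both chosen after seeing the data. Samples of equal number deviated together only weakly (correlations -0.062 to 0.125), so the numbers were not taken as pairs. For TLs against the vehicle control 5 of 6 samples correlated best with their own number. This held for 2 of 6 for TLs against α-GalCer and 3 of 6 for α-GalCer against the vehicle control. With the replicate block 2256 genes were called for TLs against vehicle, 2332 for TLs against α-GalCer and 0 for α-GalCer against vehicle. Against α-GalCer, Ddx52, Deptor, Sesn1 and the dendritic cell gene Irf8 lost their calls in 5, 4, 2 and 5 alternatives and Taf1c and Ptcd3 gained one in 6 and 4, and the cause was not tested. A comparison of cytosolic with mitochondrial subunits without vehicle replicate 2 was not run, as no mitochondrial member was found. For Rpl38 the depth of 3 reads in the vehicle control limits any statement.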
